A study of Mus musculus with 30 samples.

Results

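The 6 genes Ces1d, Car14, Lrg1, Fpgs, Psap and Ptgds were followed out of 8251 genes named on an Affymetrix MG_U74Av2 array of mouse left ventricle. They were chosen because their mean log2 difference between HCM and wild-type ventricles was among the lowest, so every HCM difference of these genes is a description and carries no test. All 11 probe sets of the 6 genes are shown apart: 3 each for Psap and Ptgds, 2 for Ces1d and 1 each for Car14, Lrg1 and Fpgs. HCM commonly stands for hypertrophic cardiomyopathy, in which the ventricular wall thickens. The labels do not spell it out and name no mutation, promoter or transgene. All mice were C57BL/6 and 2 months old, and each array carried RNA pooled from 2 animals. The groups were male and female wild-type mice on a soy-based diet, male and female wild-type mice on a casein-based diet, and male and female HCM mice on the casein-based diet, with 4 arrays each, and male and female HCM mice on the soy-based diet, with 3 arrays each. Nothing in the labels says whether pools shared a litter or a day, so p-values measure the spread between these pools. In such whole-ventricle RNA, fewer cells of a type and less RNA per cell cannot be told apart.

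The products of these genes act in separate places. Ces1d is a carboxylesterase of the endoplasmic reticulum that hydrolyses ester bonds in lipids and drugs and is best known in liver and adipose tissue. Car14 is a membrane-bound carbonic anhydrase, which interconverts carbon dioxide and bicarbonate at the cell surface and works beside bicarbonate transporters in muscle. Lrg1 is a secreted leucine-rich glycoprotein that is made by liver, neutrophils and activated endothelium and modulates TGF-beta signalling through the co-receptor endoglin. Fpgs adds glutamates to folates and so holds them inside the cell. Psap is the precursor of the saposins, small proteins that present sphingolipids to lysosomal hydrolases. Ptgds makes prostaglandin D2 and also carries lipophilic molecules as a secreted lipocalin; in the heart it is known from vessel and endocardial cells.

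RefSeq promoter sequences (build GRCm38.p6, 250 bases before to 50 after the gene start) were found for 5 of the 6 genes, not for Ces1d. Lrg1 is printed because it was the gene with a difference of like size on both diets, Fpgs because its difference lay on casein, and Psap because its probe sets disagreed and RefSeq lists 2 starts for it. Capitals mark matches, on either strand, to any of the motifs searched: TATAAA (the TATA box), CCAAT (the CCAAT box), GGGCGG (the GC box), CACGTG (an E-box), TTCNNNGAA (the STAT element), AGGTCA (a nuclear receptor core) and AGAACA (a steroid receptor core).
Lrg1, chr17:56121897-56122196, minus strand: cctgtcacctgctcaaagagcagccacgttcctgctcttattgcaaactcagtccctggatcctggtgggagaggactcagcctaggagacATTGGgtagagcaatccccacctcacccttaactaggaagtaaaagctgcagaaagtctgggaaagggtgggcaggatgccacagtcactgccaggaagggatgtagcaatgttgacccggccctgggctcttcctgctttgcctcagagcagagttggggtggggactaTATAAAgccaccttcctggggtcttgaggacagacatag
Fpgs, chr2:32694126-32694425, minus strand: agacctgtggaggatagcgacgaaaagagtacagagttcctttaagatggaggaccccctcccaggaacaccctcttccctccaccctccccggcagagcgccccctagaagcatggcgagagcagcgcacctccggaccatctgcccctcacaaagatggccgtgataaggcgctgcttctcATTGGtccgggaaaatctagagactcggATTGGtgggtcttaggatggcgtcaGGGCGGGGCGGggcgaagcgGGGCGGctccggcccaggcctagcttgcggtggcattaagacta
Psap upstream start, chr10:60277378-60277677, plus strand: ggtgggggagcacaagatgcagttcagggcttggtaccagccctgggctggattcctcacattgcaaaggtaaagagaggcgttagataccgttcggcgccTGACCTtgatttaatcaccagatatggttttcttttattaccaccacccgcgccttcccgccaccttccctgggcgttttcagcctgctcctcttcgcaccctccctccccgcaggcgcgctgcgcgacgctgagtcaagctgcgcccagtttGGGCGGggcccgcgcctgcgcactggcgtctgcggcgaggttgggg
Psap downstream start, chr10:60284211-60284510, plus strand: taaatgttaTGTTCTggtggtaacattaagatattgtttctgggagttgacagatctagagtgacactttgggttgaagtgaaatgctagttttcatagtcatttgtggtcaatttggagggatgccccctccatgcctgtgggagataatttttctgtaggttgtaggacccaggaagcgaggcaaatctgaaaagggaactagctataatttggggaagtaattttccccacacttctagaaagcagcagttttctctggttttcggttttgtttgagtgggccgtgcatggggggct
The Lrg1 window held TATAAA, beginning 12 bases into the transcribed part, and CCAAT on the opposite strand at position -159; 13.6% and 37.4% of 32851 promoters of this length held each of these. The Fpgs window held GGGCGG at 3 places, at positions -14, -9 and 7, the first and the second overlapping by a base, and CCAAT on the opposite strand at -67 and -39; GGGCGG stood in 35.7% of all promoters. The upstream start of Psap lay in CpG-rich sequence with 23 CpG dinucleotides against a median of 7, and the downstream start had 3. It carried GGGCGG at position 5 and AGGTCA on the opposite strand at -149 (16.3% of promoters), while the downstream start carried only AGAACA, on the opposite strand at -241 (19% of promoters). CACGTG (7.15% of promoters) and TTCNNNGAA (8.3%) were in none of the 6 windows of these genes. These matches describe letters only.

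Heart muscle was seen in its markers: 7 cardiomyocyte markers averaged between 10.84 and 11.71 log2 units on all arrays, against 6.19 for the median probe set. This average was not a check of ventricle against atrium, and atrial markers are described with the other cell types below. The cardiomyocyte list averaged 10.84 to 11.24 on the soy wild-type arrays, below the 11.38 to 11.71 of all other arrays. Array medians lay between 6.11 and 6.22, and every soy median (6.197 or more) lay above every casein median (6.189 or less). The main fit did not adjust for this offset between the diets. Bacterial control RNAs stood apart on the 8 casein HCM arrays, where the control Dap read 8.22 to 9.10 against 4.17 to 5.02 on the 22 other arrays. Among casein wild-type arrays, replicates 1 and 2 of both sexes read 11.31 to 12.24 for the control BioDn and replicates 3 and 4 read 10.34 to 10.60. The control BioC read 7.13 to 7.86 in wild type and 6.82 to 7.11 in HCM on soy. Control RNAs thus differed between the combinations of diet and genotype, and within casein wild type, so array set and group cannot be told apart for HCM or diet. Each of these sets held as many males as females. In the array maker's naming, a probe set ending in _f_at can match several members of a gene family and sets ending in _i_at or _r_at were chosen under relaxed rules; both Ces1d sets, in a family of near-identical carboxylesterases, and all 3 Ptgds sets have such endings, so their signal may include related transcripts.

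In HCM ventricles the mean over both sexes and diets was lower for all 11 probe sets (52.7% of all probe sets were below 0, and 32.8% passed the limma threshold in either direction), with differences between -0.65 and -0.11 on the log2 scale and a median of -0.47, against a median of -0.01 over all 12422 probe sets. The order that chose the genes ran over 660 genes lower in all 4 combinations of sex and diet, with the limma threshold used only as a filter, so the high places of the members are fixed by the choice. Psap (-0.45 ± 0.05) and Ptgds (-0.45 ± 0.07) stood at its edge. Gpd1 (glycerol-3-phosphate dehydrogenase, -0.45 ± 0.04) and Vpreb3 (-0.45 ± 0.13) stood just before them, and Fbp2 (muscle fructose bisphosphatase, -0.45 ± 0.06) and Klc4 (a kinesin light chain, -0.44 ± 0.05) came next; errors of differences are standard errors throughout. This order used the brightest probe set of each gene. Of the other probe sets, 92545_f_at of Ptgds ranked 2525 of 12422, so the name of a lowered gene does not hold for every probe set.

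The diets divided the genes. On casein the median HCM difference over the 11 probe sets was -0.60 and on soy -0.31. On casein, 6 probe sets had every HCM array below every wild-type array with both sexes together (6.35% of all probe sets did), and on soy 2 had (4.1% of all). Only the Lrg1 set kept HCM below wild type without overlap in each of the 4 combinations of sex and diet, which held for 0.177% of all probe sets. Since the genes were chosen on these arrays, nothing is read from these shares.

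**Figure D1:**
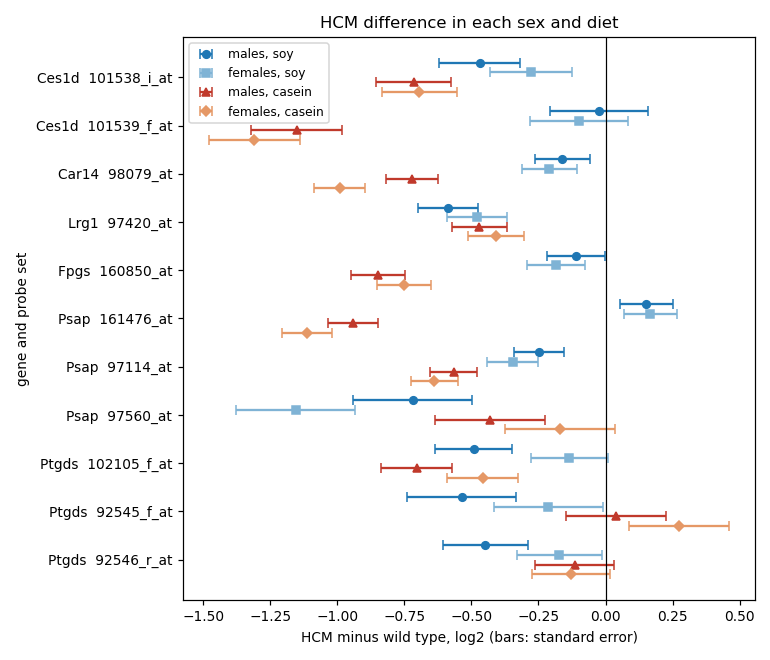
HCM minus wild type on the log2 scale for each of the 11 probe sets (vertical axis), in males and females on soy (blue circles and light blue squares) and on casein (red triangles and orange diamonds), with standard errors as bars. Lrg1 lies between -0.59 and -0.41 in all 4, whereas the casein points of Car14 and Fpgs lie well left of their soy points and probe set 161476_at of Psap changes side.

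Lrg1, the secreted glycoprotein, was lower in HCM by nearly the same amount on both diets. On soy its log2 expression was 8.02, 7.60, 7.92 and 8.01 in wild-type males and 8.13, 8.08, 7.67 and 7.83 in wild-type females. The HCM males on soy read 7.21, 7.37 and 7.31 and the HCM females 7.46, 7.50 and 7.39. The highest HCM array thus lay below the lowest wild-type array. On casein wild-type males read 8.31, 8.02, 8.30 and 8.41 and HCM males 7.69, 7.93, 7.81 and 7.73. Wild-type females on casein read 7.77, 7.86, 7.85 and 8.15 and HCM females 7.49, 7.59, 7.38 and 7.53. Within each sex the genotypes were apart, but HCM males overlapped wild-type females. The difference was -0.53 ± 0.08 on soy and -0.44 ± 0.07 on casein, a 1.45-fold and a 1.36-fold lower level.

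Ces1d, the carboxylesterase, was highest in wild-type mice on casein. For probe set 101538_i_at the lowest, median and highest values were 8.08, 8.41 and 8.88 in wild type on soy (n = 8) and 7.94, 8.07 and 8.33 in HCM on soy (n = 6). On casein they were 8.69, 9.09 and 9.35 in wild type (n = 8) and 8.09, 8.34 and 8.67 in HCM (n = 8). The genotypes overlapped on soy and did not on casein, and the differences were -0.37 ± 0.11 and -0.71 ± 0.10. The second probe set, 101539_f_at, shared the casein pattern and lacked the soy one. It ran from 8.26 to 8.83 in wild type and from 6.88 to 7.51 in HCM on casein, a difference of -1.23 ± 0.12 or 2.35-fold, the largest of any set here. On soy its wild-type arrays spread from 6.76 to 8.28 around the HCM arrays at 7.32 to 7.69, and the difference was -0.06 ± 0.13.

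Car14, the membrane carbonic anhydrase, had its lowest level in HCM on casein and its highest in wild type on casein. Its lowest, median and highest values were 8.86, 9.16 and 9.28 in wild type and 8.81, 8.94 and 9.04 in HCM on soy. On casein they were 9.35, 9.47 and 9.69 in wild type and 8.41, 8.57 and 8.94 in HCM. The groups overlapped on soy and were apart on casein. The HCM difference was -0.19 ± 0.07 on soy and -0.86 ± 0.07 on casein, the latter a 1.81-fold lower level.

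Fpgs, the folate-retaining synthetase, was lower on casein in both genotypes and lowest in HCM on casein. On soy it ran from 6.36 to 6.82 with a median of 6.62 in wild type and from 6.35 to 6.61 with a median of 6.47 in HCM. On casein wild type ran from 5.88 to 6.30 (median 6.22) and HCM from 5.20 to 5.60 (median 5.36). The genotypes overlapped on soy, while on casein every HCM array lay below every wild-type array. The difference was -0.15 ± 0.08 on soy and -0.80 ± 0.07 on casein. This probe set was of middling brightness, with a mean of 6.14, at the 49.2nd percentile of all probe sets.

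**Figure D2:**
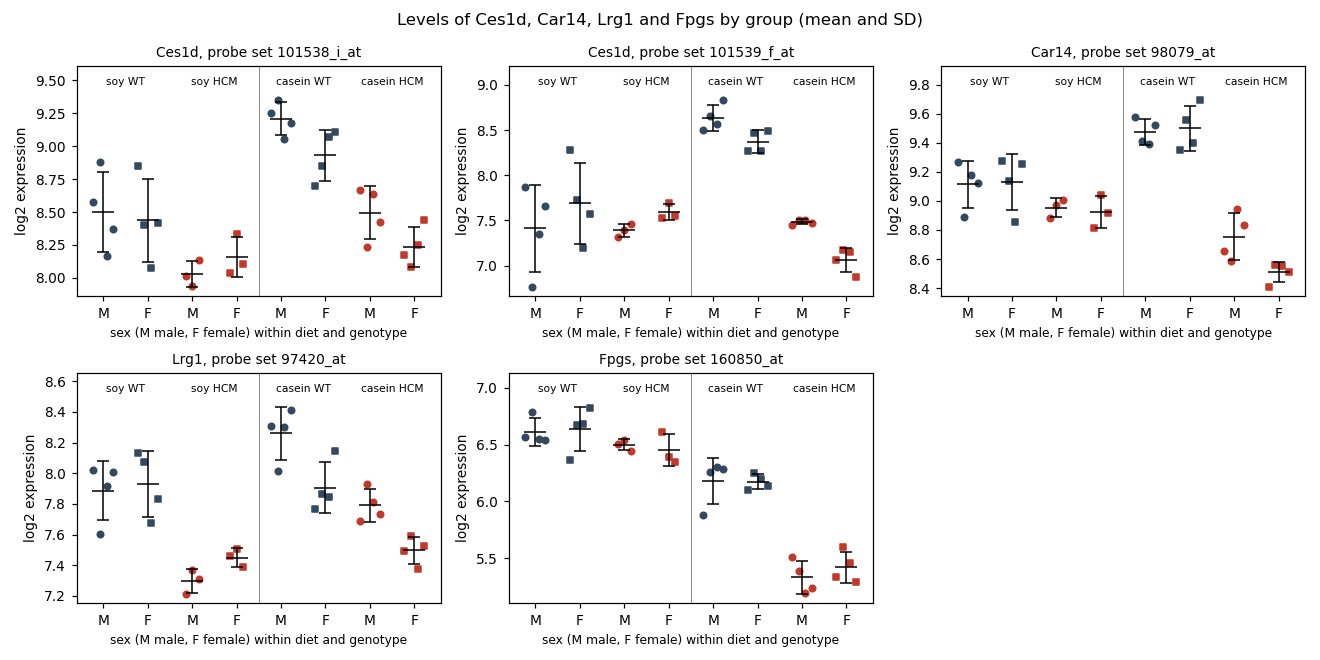
Log2 expression (vertical axes, each with its own range) of the 5 probe sets of Ces1d, Car14, Lrg1 and Fpgs in the 8 groups, with males as circles, females as squares, wild type dark and HCM red; each point is an array and black marks give the group mean and SD. The red HCM points of Lrg1 lie low under both diets, while those of Car14 and Fpgs leave the wild-type range on casein.

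Psap, the saposin precursor, was read by 3 probe sets that differed in level and in pattern. The brightest, 97114_at, averaged 10.69 and was lower in HCM on both diets. It ran from 10.57 to 11.06 in wild type and from 10.45 to 10.70 in HCM on soy, and from 10.79 to 11.05 and 10.04 to 10.48 on casein. The groups overlapped on soy and not on casein, with differences of -0.30 ± 0.07 and -0.60 ± 0.06. Probe set 161476_at stood at 7.06 to 7.34 in wild type and 7.26 to 7.47 in HCM on soy, which put HCM above wild type by 0.16 ± 0.07. On casein the same set ran from 7.30 to 7.80 in wild type and from 6.27 to 6.55 in HCM, a difference of -1.03 ± 0.06. The third set, 97560_at, was dim, with a mean of 5.59, and had its larger HCM difference on soy. It ran from 5.79 to 6.90 in wild type and from 5.30 to 5.58 in HCM on soy, without overlap (-0.94 ± 0.16), and from 4.29 to 5.74 and 4.64 to 5.68 on casein, with overlap (-0.30 ± 0.14). The sets therefore shared a lower HCM mean and not a common size by diet.

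Ptgds, the prostaglandin D2 synthase, was bright on all 3 probe sets, and these were alike on soy and unlike on casein. On soy 102105_f_at ran from 10.64 to 11.64 in wild type and from 10.77 to 11.13 in HCM (-0.31 ± 0.10). On casein it ran from 10.76 to 11.42 in wild type and from 10.35 to 10.80 in HCM (-0.58 ± 0.09). Overlap was slight on casein and broad on soy. Probe set 92546_r_at differed by -0.31 ± 0.11 on soy and by -0.12 ± 0.10 on casein, where wild type ran from 10.05 to 10.66 and HCM from 9.86 to 10.49. Probe set 92545_f_at differed by -0.38 ± 0.14 on soy and by 0.16 ± 0.13 on casein, where HCM ran from 9.02 to 9.53 within the wild-type range of 8.68 to 9.65. The soy differences were larger in males, at -0.49, -0.54 and -0.45, than in females, at -0.13, -0.21 and -0.17, in the order 102105_f_at, 92545_f_at and 92546_r_at; this gap between the sexes was not tested.

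**Figure D3:**
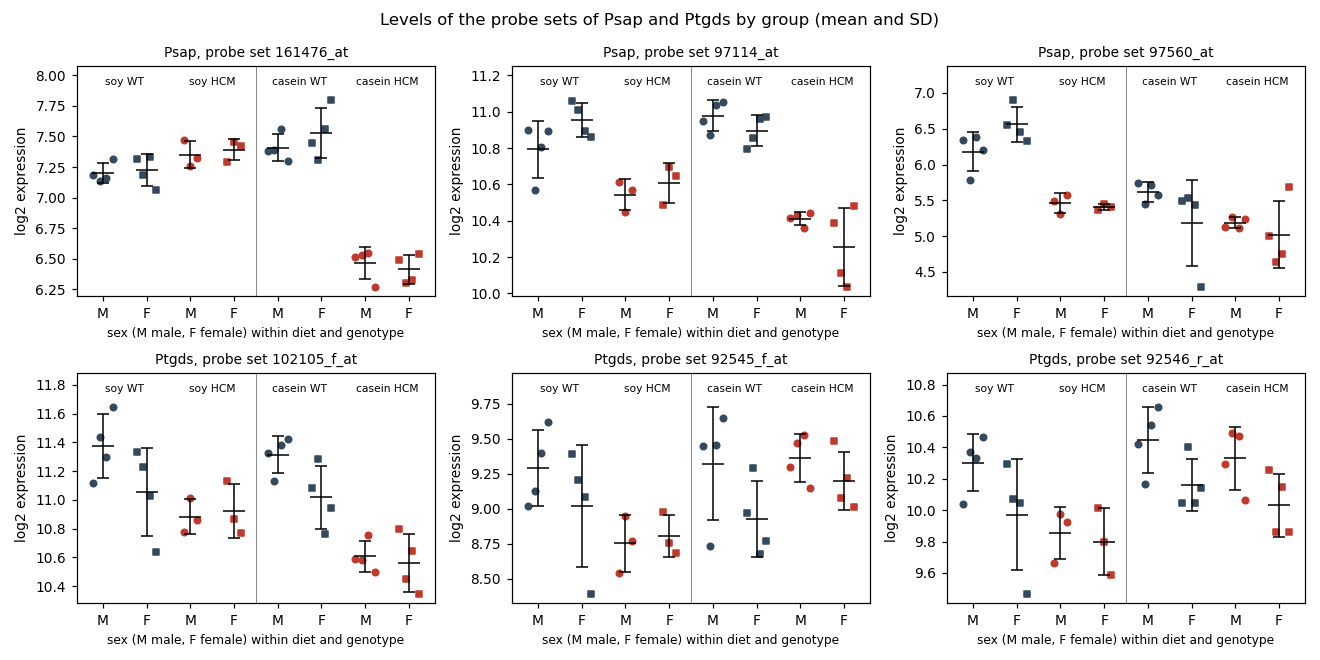
Log2 expression (vertical axes, each with its own range) of the 3 probe sets of Psap and the 3 of Ptgds in the 8 groups; circles are males, squares females, dark points wild type and red points HCM, and black marks give the group mean and SD. On casein the HCM points of 161476_at sit between 6.27 and 6.55, below all others, whereas those of 92545_f_at sit inside the wild-type range.

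The diet comparison was not used to choose the genes and was tested with limma over all 12422 probe sets. Within wild type, 4 of the 11 probe sets were higher on casein, 2 were lower and 5 did not pass; 46% of all probe sets passed, 20.3% higher and 25.6% lower, so this share is near the background. Both Ces1d sets rose, by 0.60 ± 0.10 (adjusted p = 1.6e-05) and 0.95 ± 0.12 (2.98e-07). Car14 rose by 0.36 ± 0.07 (7.8e-05), and every casein array lay above every soy array (5.55% of all probe sets). Psap 161476_at rose by 0.26 ± 0.06 (0.00201), and Psap 97560_at went the other way, at -0.97 ± 0.14 (4.35e-06). Fpgs was lower by a log2 change of -0.44 ± 0.07 (9.97e-06). Fpgs and Psap 97560_at were both lower on casein without overlap between the diets, as were 5.29% of all probe sets. Lrg1 was at 0.18 ± 0.07 (0.0521), Psap 97114_at at 0.06 ± 0.06 (0.432), and the Ptgds sets between -0.05 and 0.17 (0.192 or more). By sex, Lrg1 was at 0.37 in wild-type males (limma adjusted p = 0.00573) and -0.02 in wild-type females (0.899). When quantile normalization was added, Psap 97114_at stood at -0.26 and Ptgds 102105_f_at at -0.32, and both passed. Lrg1 lay at the threshold and passed without any 1 of 6 arrays (adjusted p 0.0161 to 0.0418). These were replicates 1 and 4 of the soy males, 2 of the casein males, 1 and 2 of the soy females and 1 of the casein females. It also passed with arrays centred on their medians (0.24, 0.012). In a limma fit with casein wild type split by array set, Lrg1 differed from soy by 0.08 (adjusted p = 0.495) in replicates 1 and 2. In replicates 3 and 4 the Lrg1 difference was 0.27 (0.0126). Psap 161476_at no longer passed without casein replicates 3 and 4 (0.17, adjusted p = 0.0628).

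Within HCM, 4 probe sets were higher on casein, 5 were lower and 2 did not pass, against 61.1% of all probe sets that passed, 29.8% higher and 31.3% lower. Fpgs had the largest change, -1.10 ± 0.08 or 2.14-fold (adjusted p = 1.64e-12 in limma), followed by Psap 161476_at at -0.93 ± 0.07 (7.51e-12). For both, every casein array lay below every soy array (18.8% of all probe sets). Ptgds 92545_f_at was apart in the other direction, with casein arrays from 9.02 and soy arrays up to 8.97 (19% of all). Car14 fell by 0.31 on the log2 scale (SE 0.07, 0.000726), the opposite sign to wild type; the difference between the genotypes is the HCM difference by diet and was not tested. Lrg1 rose by 0.27 ± 0.08 (0.00458) and Ces1d 101538_i_at by 0.27 ± 0.11 (0.0307), while Ces1d 101539_f_at was at -0.22 ± 0.13 (0.15). By sex, Lrg1 was at 0.49 in HCM males (limma adjusted p = 0.000665) and 0.05 in HCM females (0.763). Ces1d 101538_i_at was at 0.46 in HCM males (0.0128) and 0.08 in HCM females (0.711). Ces1d 101539_f_at was at 0.10 in HCM males (0.688) and -0.53 in HCM females (0.0209), where it passed. The test of sex by diet gave no calls, as described below. Psap 97114_at was lower, at -0.24 ± 0.07 (0.00255), and Psap 97560_at was at -0.33 ± 0.16 (0.0702). The Ptgds sets passed in opposite directions: 102105_f_at at -0.32 ± 0.10 (0.00835), 92545_f_at at 0.50 ± 0.14 (0.00351) and 92546_r_at at 0.35 ± 0.11 (0.00735). When array sets were fitted as a random block, 3 of the 11 passed within HCM: Fpgs, Car14 and Psap 161476_at. Apart from the split of casein wild type, each set coincides with a combination of diet and genotype. The block therefore takes its correlation from that split and cannot remove an offset of the casein HCM arrays. These calls are not thereby freed of array set. Adding quantile normalization ended the within-HCM calls of Ptgds 92546_r_at (0.09, limma adjusted p 0.501) and Ces1d 101538_i_at (0.20, 0.157). The Ces1d 101538_i_at call also ended without any 1 of 7 arrays (soy males 1 and 2, soy females 1 and 3, casein males 1 and 3, casein females 4; adjusted p 0.0528 to 0.0773), and Psap 97560_at passed without replicate 4 of the casein HCM females (0.0102) or of the casein wild-type females (0.0172). Averaged over genotypes, 9 of 11 passed (62.3% of all probe sets did), with Fpgs at -0.77 ± 0.05 (6.63e-13) and Ces1d 101538_i_at at 0.44 ± 0.07 (8.65e-06). All 3 Ptgds calls of this mean, at -0.18, 0.24 and 0.26 for 102105_f_at, 92545_f_at and 92546_r_at, ended with the array-set block, which left 6 of 11 (limma adjusted p 0.167, 0.212 and 0.072). With quantile normalization added, 92545_f_at (0.09, 0.413) and 92546_r_at (-0.0021, 0.984) did not pass. It moved Psap 97114_at from -0.09 (limma adjusted p 0.084) to -0.41 (6.99e-10). Car14 moved from 0.03 (0.631) to -0.11 (0.0428), so both then passed. With arrays centred on their medians, 102105_f_at did not pass (-0.12, 0.124). The call of 92545_f_at also ended in 12 of the 30 fits without 1 array (adjusted p 0.0537 to 0.076): soy wild-type males 1 and females 4, casein wild-type males 1, 3 and 4 and females 2, soy HCM males 1 and females 2 and 3, and casein HCM males 2 and 3 and females 1. That of 102105_f_at ended without soy HCM females 1 (0.0564). The diet and HCM comparisons share arrays and are set side by side only.

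**Figure D4:**
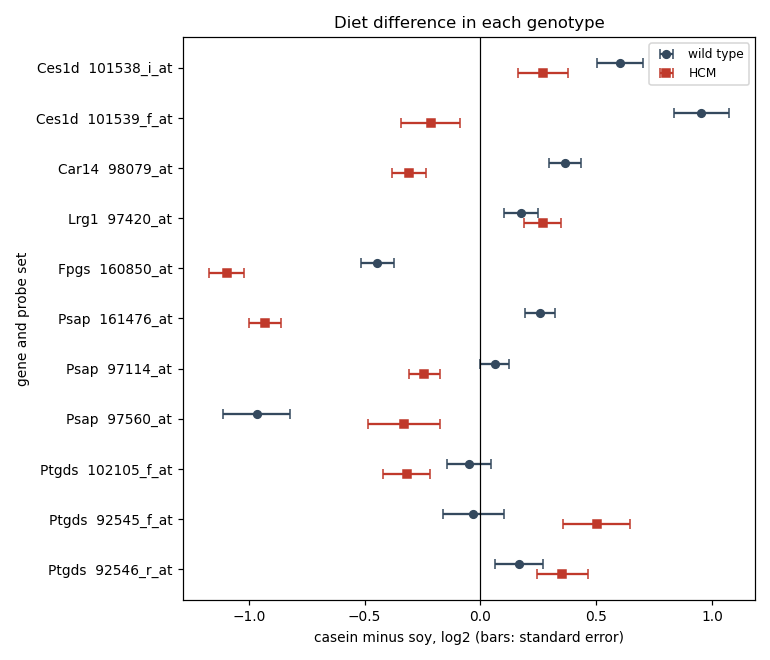
Casein minus soy on the log2 scale for each of the 11 probe sets (vertical axis), in wild type (dark circles) and in HCM (red squares), with standard errors as bars. Fpgs lies left of 0 in both genotypes, Ces1d 101538_i_at lies right of 0 in both, and Car14 lies right of 0 in wild type and left of it in HCM.

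Sex moved none of the 11 probe sets past the limma threshold as a mean over the 4 combinations of diet and genotype; 0.233% of all probe sets passed, and 3 of the 11 had an unadjusted p under 0.05. The largest difference was that of Ptgds 92546_r_at, at -0.24 ± 0.08 in females relative to males (adjusted p = 0.281). The other Ptgds sets were at -0.16 ± 0.07 (0.511) and -0.19 ± 0.10 (0.563), and Lrg1 at -0.11 ± 0.05 (0.532). The 95% interval of the sex difference was -0.09 to 0.12 for Fpgs and -0.16 to 0.04 for Car14. The test of sex by diet gave 0 calls among the 11 and 0% among all probe sets, with 5 of the 11 at an unadjusted p under 0.05. The share of all probe sets under 0.05 without adjustment was not computed, so nothing is read from the unadjusted counts for sex or for sex by diet. Among the 11, Lrg1 had the smallest p for sex by diet. Its females minus males was 0.04 and 0.15 on soy, in wild type and HCM, and -0.35 and -0.29 on casein. That made a difference of -0.42 ± 0.11 (limma adjusted p = 0.189).

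The casein wild-type arrays allowed a look at spread between array sets with diet and genotype held fixed. Between replicates 1 and 2 and replicates 3 and 4 of both sexes, 13.5% of all probe sets passed in limma and 0 of the 11 did. Of the 11, 1 had an unadjusted p under 0.05, for which the share of all probe sets was not computed. The smallest adjusted p in limma was 0.168, for Psap 161476_at at -0.18 ± 0.08. Against either of these sets alone, the HCM difference on casein was -0.84 or -0.87 for Car14, -0.75 or -0.85 for Fpgs, and -0.34 or -0.53 for Lrg1. Those of Ces1d 101539_f_at were -1.20 and -1.27. Psap 97560_at had the widest gap, at -0.45 against replicates 1 and 2 and -0.15 against replicates 3 and 4. That gap rested on replicate 4 of the females, which read 4.29. Without this array the HCM difference of Psap 97560_at on casein was -0.45. Ptgds 92546_r_at was at -0.08 and -0.17 against the sets.

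The genes whose values ran most like those of each gene's brightest probe set were found by Pearson correlation over the 30 arrays, as a description with no p, since the arrays share diet, genotype and set. Ces1d was most like Fbp2 (r = 0.89), then Carm1, a protein arginine methyltransferase (0.84), and Uqcc1, an assembly factor of respiratory complex III (0.81). Fbp2 had HCM differences of -0.47 on soy and -0.42 on casein. Car14 was nearest to Lama5, a laminin chain (0.91), Spns1 (0.90) and Phldb1 (0.89). Lrg1 was nearest to Cpt2 and Crat, carnitine acyltransferases of fatty acid handling (0.85 and 0.84), and to Ints3 (0.82). Crat shared the soy difference, at -0.49, with -0.26 on casein. Fpgs was nearest to Chrne, a subunit of the acetylcholine receptor (0.96), Hgs, an endosomal sorting protein (0.96), and Gm9574 (0.94). Psap 97114_at was nearest to Klc4 (0.90), Ndufa10 (0.88) and Spns1 (0.86), and Ptgds 102105_f_at to Fah (0.76), Gpd1 (0.73) and Capzb (0.72).

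Partners of the 6 genes were listed by function. Of 105 partner genes on 6 lists, 18 were higher and 15 lower in HCM past the limma threshold, against 17.2% higher and 15.6% lower among all probe sets. These counts are over the mean of the diets, and the diets differed in their counts; on soy 12.3% of all probe sets were higher and 12.3% lower, and on casein 25% were higher and 24% lower. Of 11 carboxylesterase and lipase partners of Ces1d, 2 were higher and 1 lower (3 and 1 on soy, 1 and 4 on casein): Lipa, the lysosomal acid lipase (0.24 ± 0.05), Plin2, a lipid droplet coat protein (0.14 ± 0.04), and Aadac (-0.15 ± 0.05). Of 13 carbonic anhydrases and acid-base transporters, Slc16a1, a lactate transporter, was higher (0.65 ± 0.08, adjusted p = 5.07e-07) and Slc4a3, a bicarbonate exchanger of heart muscle, lower (-0.27 ± 0.06, 0.000687); on soy 3 were higher and 2 lower, and on casein 2 and 2. Of 26 TGF-beta and acute-phase partners of Lrg1, 5 were higher and 3 lower. On casein 14 were higher and 4 lower (median 0.21), and on soy 3 were higher and 6 lower (median -0.10). Endoglin (Eng), the co-receptor through which Lrg1 acts, was at -0.32 ± 0.06 (0.000107) as a mean, -0.68 on casein and 0.04 on soy. Lcn2, an acute-phase lipocalin, was at -0.27 ± 0.05 (0.000226), from -0.70 on casein and 0.15 on soy, and Il6st, the shared interleukin receptor chain, at 0.27 ± 0.06 (0.00126). Of 14 folate genes 3 were higher and none lower: Gcsh of the glycine cleavage system (0.37 ± 0.07), Ggh, which removes the glutamates that Fpgs adds (0.24 ± 0.04, adjusted p = 4.89e-05), and Mthfd2 (0.22 ± 0.05). On soy no folate gene was higher and 2 were lower, with Gcsh at -0.02 and Ggh at 0.08, and on casein 6 were higher and 2 lower, with Gcsh at 0.76 and Ggh at 0.41. Of 23 lysosomal partners of Psap, 7 were higher and 4 lower (4 and 0 on soy, 8 and 3 on casein), among them the cathepsin Ctss (0.41 ± 0.12, 0.00881; -0.13 on soy), the membrane protein Lamp2 (0.38 ± 0.08) and the sphingomyelinase Smpd1 (-0.27 ± 0.05, 0.000139; -0.04 on soy). Of 19 prostaglandin genes 1 was higher, the receptor Ptger4 (0.28 ± 0.05; 0.02 on soy and 0.54 on casein), and 6 were lower (on soy 0 higher and 5 lower, on casein 4 and 5), including the prostaglandin E synthases Ptges2 (-0.22 ± 0.06) and Ptges (-0.19 ± 0.05) and the phospholipase Pla2g5 (-0.20 ± 0.06). When array sets were fitted as a random block, 7 partners were higher and 5 lower.

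Markers of cell types that could carry these transcripts were compared in the same fit. Of 7 neutrophil markers 1 was lower in HCM, Ngp at -0.27 ± 0.04 (adjusted p = 1.11e-05), and none was higher; the list averaged 5.75 to 6.21 in wild type and 5.65 to 5.74 in HCM on soy, and 5.58 to 5.96 and 5.68 to 5.96 on casein. On soy 0 neutrophil markers were higher and 2 lower, and on casein 2 and 2. Of 5 adipocyte markers none passed for the mean, 2 were lower on soy and 2 higher on casein, and Adipoq, the defining adipokine, was dim at a mean of 4.26. Of 8 endothelial markers 4 were higher and 2 lower, and the median HCM difference of this list was 0.16, above 0. The 2 lower markers, which went against that median, were Pecam1 at -0.38 ± 0.05 (limma adjusted p = 5.55e-07) and Eng as above. The endothelial list averaged 7.36 to 8.06 over the wild-type arrays and 7.72 to 8.02 over the HCM arrays. Of 6 smooth muscle and pericyte markers 4 were higher and none lower, and the list averaged 7.63 to 8.02 on the casein HCM arrays against 6.95 to 7.44 on all others. On casein 5 of these 6 were higher and on soy 1 was. Endothelial markers were higher in 3 and lower in 0 on soy, and in 1 and 3 on casein. Fibroblast markers were higher in 4 and lower in 1 of 7 for the mean and on casein, and in 1 and 1 on soy. Of 7 macrophage markers 1 was higher and 1 lower for the mean; on casein 4 were higher and 1 lower (median 0.33), and on soy none passed (median -0.11). That list averaged 7.03 to 7.50 in HCM and 6.85 to 7.07 in wild type on casein; on soy it averaged 6.80 to 6.98 in HCM, inside the wider wild-type range that reached 7.70. Of 4 atrial markers 1 was higher for the mean; on casein 3 were higher (median 0.69) and on soy 2 were lower (median -0.19). The atrial list averaged 7.51 to 8.58 in HCM and 6.82 to 7.65 in wild type on casein, and 7.17 to 7.70 and 7.47 to 8.01 on soy. On casein, where most differences of the 6 genes were larger, several lists had more markers higher than lower in HCM. Among them were the smooth muscle and pericyte, fibroblast, macrophage and atrial lists, while the endothelial list had more lower than higher. Atrial markers also moved on soy, downwards. Of 7 cardiomyocyte markers 6 were higher and none lower, of 4 liver markers 1 was lower (Alb at -0.18 ± 0.06, 0.0132), of 4 red blood cell markers none passed, and of 3 Schwann cell markers 1 was higher (on soy 1 higher and 1 lower, on casein 2 higher). On soy 6 cardiomyocyte markers were higher, and on casein 3 were higher and 1 lower. Within wild type all 7 were higher on casein than on soy (median 0.40), against 20.3% of all probe sets. The soy wild-type arrays, which read these markers low, also enter the soy HCM differences and the wild-type diet differences of the 6 genes. The part of these cells in the differences of the 6 genes was not tested.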

How the data were processed

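The authors deposited log2 values for each probe set. The submitters' processing notes name RMA and Affymetrix Expression Console, without version or settings. RMA commonly normalizes arrays to each other, so levels are relative, and levels of different probe sets are not compared as amounts. Whether all arrays were normalized together is not stated, and array medians differed between the diets. Adding quantile normalization moved the wild-type diet effect of Psap 97114_at from 0.06 to -0.26 and of Ptgds 102105_f_at from -0.05 to -0.32. The diet p-values of the main fit take the deposited values as they are, so a common scale over both diets is not assured. Detection calls were not used here. The labels' sex, diet and genotype put the 30 arrays into 8 groups, and their number limits the precision. No pair was identical (r between arrays 0.930 to 0.997).

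Probe sets were named from the platform annotation: of 12488, 66 are controls, 10833 have 1 gene symbol, 396 several and 1193 none. All 12422 non-control probe sets entered 1 limma model (R 4.3.3, limma 3.58.1, statmod 1.5.0; lmFit, contrasts and eBayes) with a coefficient per group (22 residual degrees of freedom; the prior added 5.86). All tests were two-sided and called at 0.05 after Benjamini-Hochberg adjustment across the table. For lists, the brightest probe set stood for a gene. Fold changes are those of log2 values. On simulated diet effects of 0.3 and 0.6, each put into 100 probe sets, the fit over 12422 probe sets recovered 84% and 100%. For sex it recovered 95% and 100%. False calls numbered 10 for diet and 9 for sex. The simulated arrays had independent noise and no array sets, so these rates do not cover diet effects that coincide with array sets.

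The members, the lists and the tests were chosen with earlier results of these data known. Named genes were all member probe sets, the partners in each list that passed and changed most (at most 4), the 3 most similar probe sets, and neighbours in the HCM order. Alternatives were other probe set choices, normalizations, weights and blocks, and leaving out sets or single arrays. Replicate numbers were checked as pairs: same-numbered arrays had deviations correlating over 0.1 in every pair for 1 of 10 pairs of groups, so no pairing was used.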

Additional observations from a re-analysis of the deposited data

Results flagged for a closer look

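Within groups of 4 arrays, 66 sets of values were checked for an array far from the other 3, and 4 were found, where chance gives about 5%. For Fpgs, replicate 2 of the wild-type males on soy read 6.79 against 6.54 to 6.56 in the others, and replicate 1 of the wild-type males on casein read 5.88 against 6.26 to 6.30. For Psap 161476_at, replicate 4 of the HCM males on casein read 6.27 against 6.51 to 6.55. For Psap 97560_at, replicate 4 of the wild-type females on casein read 4.29 against 5.44 to 5.53. Leaving out single arrays moved no HCM difference of these probe sets by more than the spread between replicates.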

How the results depend on the processing

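Limits come from the array sets and from the small groups. Without the casein HCM arrays the HCM difference, then that on soy, was -0.061 for Ces1d 101539_f_at, -0.19 for Car14, -0.15 for Fpgs, -0.30 for Psap 97114_at, -0.94 for Psap 97560_at and -0.38 for Ptgds 92545_f_at, and it turned to 0.16 for Psap 161476_at; the diet effect, then that in wild type, turned to 0.26 for Psap 161476_at and to -0.031 for Ptgds 92545_f_at. In the other 10 settings every mean HCM difference that could be computed kept its sign and moved by less than the spread between replicates. The mean diet effect of Ptgds 92546_r_at turned to -0.0021 with quantile normalization added. With 1 probe set per gene, where only 6 member sets are tested, 4 passed for the mean diet effect and 3 within wild type. The array set as a random block (consensus correlation 0.179) left 6 member calls for mean diet and 3 within HCM, and 7 higher and 5 lower partner genes. This block cannot separate a set from the diet and genotype with which it coincides. Without the casein HCM arrays 9 partners were higher. The count over all probe sets fell for HCM from 4076 to 1194 with that block and to 2499 without the casein HCM arrays, and for diet within wild type from 5708 to 3122 with the block. Leaving out the dimmest 40% gave 5054 for mean diet and 4936 within HCM, in place of 7733 and 7590, with fewer sets tested. For sex, 29 became 93 with array weights, 19 without casein wild-type replicates 3 and 4 and 14 without the casein HCM arrays. Causes other than the smaller tables were not tested. With each of the 30 arrays left out in turn, 8 to 10 member sets passed for mean diet, 6 to 7 within wild type, 8 to 10 within HCM and 0 for sex, and 18 to 21 partners were higher and 11 to 18 lower. With the replicate number as a block, 9 member sets passed for mean diet, 6 within wild type, 9 within HCM and 0 for sex, 19 partners were higher and 14 lower, and the mean HCM differences lay between -0.64 and -0.12. Arrays give no depth; their number limits the precision.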
